A study of Mus musculus with 24 samples.

Results

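The cholesterol and fatty acid synthesis genes were a set of 32 genes chosen by their known place in the pathway. Of these, 31 had a probe set that carried their symbol alone, out of 19938 genes measured in the same way, and Acat2 was not analysed here. They fell into a sterol arm of 17 genes, a fatty acid arm of 8 genes and 6 genes of regulation and sterol transport. The cells were P19, a mouse embryonal carcinoma line whose undifferentiated cells can take on other fates when given a retinoid. They grew as a monolayer on gelatine, in medium that held delipidated calf serum beside ordinary fetal serum.

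Expression was read on 24 Affymetrix Mouse Gene 1.0 ST arrays, as log2 intensities made by the authors. ATRA (all-trans retinoic acid) was given at 1 µM, BMS753, an agonist specific to retinoic acid receptor alpha, at 1 µM, BMS641, specific to receptor beta, at 0.1 µM, and BMS961, specific to receptor gamma, at 0.1 µM. Each agent had 1 array at 2, 6, 24, 48 and 72 h, and EtOH (ethanol) served as the control with 4 arrays that carried no time label. Agent and hours in culture therefore cannot be told apart in any comparison with EtOH, and the 4 agents shared the same EtOH arrays, whereas ATRA with BMS753, and BMS961 with BMS641, were matched in dose and time. The labels do not say whether arrays came from separate cultures, so each p measures the spread between these arrays. That spread includes differences in time course between the agents, and the rest of it may be technical.

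Cholesterol is built from acetyl-CoA through mevalonate, farnesyl diphosphate, squalene and lanosterol, and fatty acids are built from acetyl-CoA through malonyl-CoA and then elongated and desaturated. Many enzymes of both arms are targets of the SREBP transcription factors. Scap escorts SREBP out of the endoplasmic reticulum when sterols are low, and the Insig proteins hold it there when sterols are high. In embryos, cholesterol also modifies Hedgehog proteins, and loss of the last enzymes of its synthesis disturbs development.

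The promoters of 4 sterol-arm genes are printed. Dhcr7, Mvd and Lss are among the genes that carried the contrast described next, and Hmgcs1 had the only copy of the sterol element searched for. Pmvk and Cyp51, which carried the contrast as well, are not printed. RefSeq start sites on GRCm38.p6 were used, and each stretch is the 150 bases before a start site, 5′ to 3′ along the gene's strand, at chr13:119690201-119690350 (plus strand) for Hmgcs1, chr7:143830064-143830213 (plus strand) for Dhcr7, chr8:122443423-122443572 (minus strand) for Mvd and chr10:76531455-76531604 (plus strand) for Lss. Capitals mark TCACNCCAC, a spelling of the sterol regulatory element, or CCAAT, the box that NF-Y binds, on either strand (CCAAT reads ATTGG on the other strand). For Dhcr7, which has several annotated start sites, the one shown was chosen after its motifs were seen.
Hmgcs1: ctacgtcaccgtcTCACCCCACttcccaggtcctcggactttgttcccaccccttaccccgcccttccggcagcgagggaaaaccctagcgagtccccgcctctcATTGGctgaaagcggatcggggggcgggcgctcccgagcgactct
Dhcr7: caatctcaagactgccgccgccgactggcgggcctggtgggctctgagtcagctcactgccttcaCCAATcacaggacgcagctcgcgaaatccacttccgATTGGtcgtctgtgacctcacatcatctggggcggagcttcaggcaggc
Mvd: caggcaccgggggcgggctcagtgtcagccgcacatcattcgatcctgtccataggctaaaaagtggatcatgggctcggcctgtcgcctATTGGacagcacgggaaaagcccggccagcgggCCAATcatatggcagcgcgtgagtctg
Lss: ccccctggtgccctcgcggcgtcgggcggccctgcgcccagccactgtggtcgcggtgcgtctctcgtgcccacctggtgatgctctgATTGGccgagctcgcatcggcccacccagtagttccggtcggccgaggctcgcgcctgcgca
RefSeq promoters were matched for 24 of the 31 genes. In the window of 250 bases before to 50 bases after a start site, TCACNCCAC was present for 1 of these 24 genes, Hmgcs1, against 1.4% of 15615 genes with a promoter in the same table. CCAAT was present for 20 of 24 genes, against 41.7% of all genes. AGGTCA, the half-site of nuclear receptors such as the retinoic acid receptor, was present for 5 of 24 genes, against 16.3%. All 3 motifs were searched on both strands, and a match is a description of the letters only.

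In EtOH cells each gene of the set varied little between the 4 arrays, with an SD of at most 0.114 log2 units. The 4 EtOH arrays gave a median of the sterol arm between -0.02 and 0.04 log2 units around their own mean. Labels and cells matched in that 7 of 8 embryonal carcinoma markers lay below every EtOH array at 72 h of ATRA (33.8% of all genes), and 6 of 8 at 72 h of BMS753 (34.4%), where 1 lay above. All 5 measured retinoid-response genes (Rarb, Cyp26a1, Dhrs3, Stra6, Crabp2) were above every EtOH array in both, against 42.7% of all genes with ATRA and 33.2% with BMS753. The all-gene median of the 72 h ATRA array was 0.03 above EtOH, and before genes were selected this array had the highest median of all probe sets, 6.68, with 6.61 for the next. The all-gene medians of BMS753 at 2 and 6 h stood further above EtOH, by 0.05 and 0.04.

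**Figure D1:**
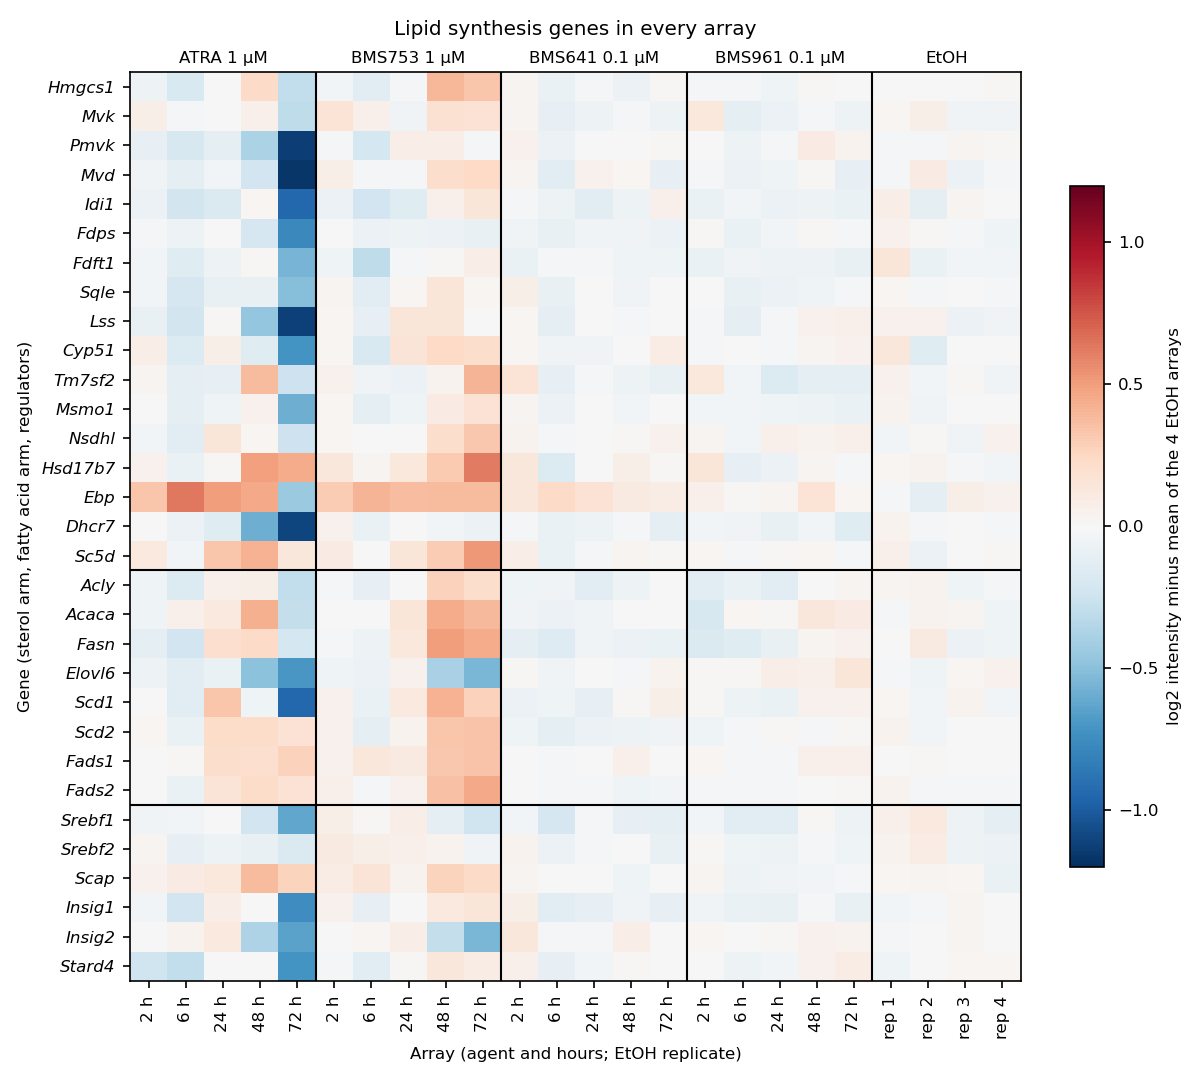
Log2 intensity of each of the 31 genes in each of the 24 arrays, minus the mean of the 4 EtOH arrays; rows are genes grouped into the sterol arm, the fatty acid arm and the regulators, columns are arrays by agent and hours. The 72 h ATRA column is lower than EtOH in 25 genes, down to -1.17 for Mvd, while the 0.1 µM agents stay within a narrow band.

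With ATRA, the sterol arm had a median near the EtOH level at 2, 24 and 48 h, a slightly lower one at 6 h and the lowest at 72 h. The median of its 17 genes, as log2 minus the EtOH mean, was -0.01, -0.12, -0.01, 0.02 and -0.56 at 2, 6, 24, 48 and 72 h, and at 72 h 15 of the 17 genes had a value below the EtOH mean. The fatty acid arm followed with -0.03, -0.10, 0.18, 0.21 and -0.25 at the same times, and the regulators with -0.01, -0.07, 0.04, -0.05 and -0.64. With BMS753, at the same dose, the sterol arm stood at 0.03, -0.08, 0.00, 0.14 and 0.18, and the fatty acid arm at 0.02, -0.06, 0.08, 0.34 and 0.34. The 1 µM agents thus had a fatty acid median above EtOH at 24 and 48 h in common, and at 72 h their medians stood on opposite sides of EtOH in both arms. The fatty acid arm was split at 72 h of ATRA, with values from -0.94 to 0.27 and 5 of 8 genes below the EtOH mean. At 72 h Scd2, Fads1 and Fads2 were above EtOH under both agents, and Elovl6 was below under both. The sterol median at 48 h of ATRA covered values from -0.59 to 0.49. Of the 17 genes, 7 were below every EtOH array and 6 above at that time (34.2% and 35.8% of all genes). At 6 h of ATRA 14 were below and 1 above (26.5% and 24% of all genes).

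Set against the range of the 4 EtOH arrays, ATRA had 10, 23, 7, 12 and 25 of the 31 genes below every EtOH array at 2, 6, 24, 48 and 72 h, against 23.5%, 26.5%, 29.8%, 34.2% and 33.8% of all genes. It had 5, 5, 13, 13 and 6 genes above every EtOH array, against 22.4%, 24%, 33.1%, 35.8% and 42.7% of all genes. BMS753 had 1, 18, 5, 4 and 5 genes below, against 9.65%, 16.4%, 27.3%, 29.6% and 34.4%, and 13, 3, 15, 22 and 22 above, against 40.9%, 39.2%, 22.6%, 31.8% and 33.2%. At 48 and 72 h of BMS753 most of the set was thus above EtOH, and at 72 h of ATRA most of it was below.

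**Figure D2:**
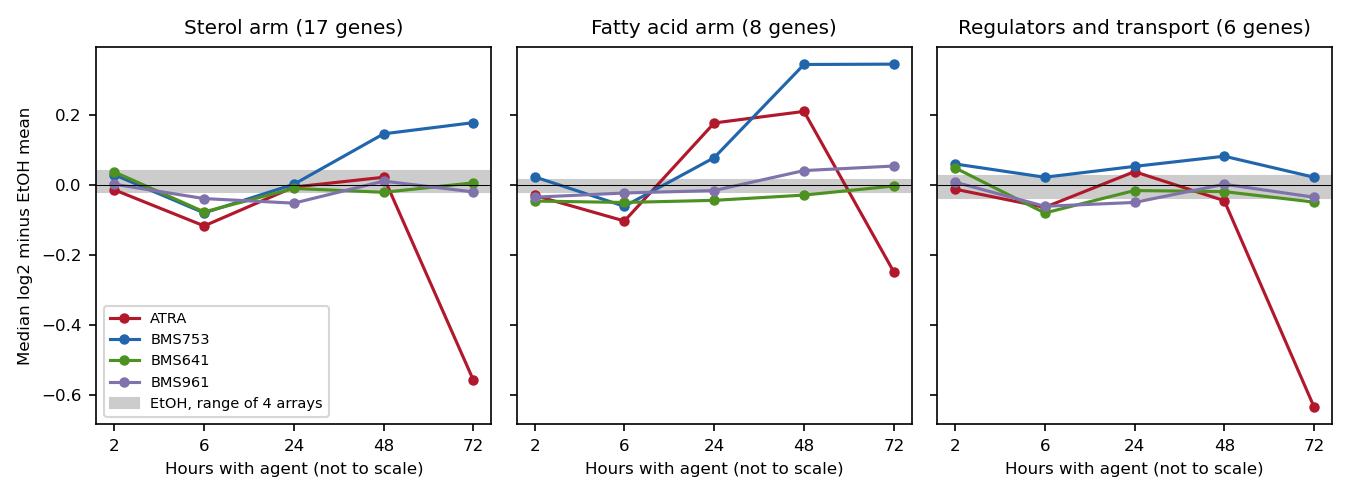
Median log2 intensity minus the EtOH mean over the genes of each arm (y axis) against hours with the agent (x axis, not to scale), 1 array per point; the grey band is the range of the 4 EtOH arrays. The ATRA lines end at -0.56, -0.25 and -0.64 at 72 h, and the BMS753 lines at 0.18, 0.34 and 0.02.

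Late ATRA (24, 48 and 72 h) against EtOH gave 6 genes that rose and 9 that fell of 31 in limma (adjusted p under 0.05). Over all genes 17.9% rose and 19% fell in the same comparison. The split depended on the last time: without the 72 h arrays 9 genes were called higher and 3 lower, where 29% of all genes were called in either direction, against 36.9% with all arrays. In the sterol arm 2 rose and 6 fell, in the fatty acid arm 3 rose and 1 fell, and among the regulators 1 rose and 2 fell. The median change was -0.20 in the sterol arm, 0.08 in the fatty acid arm and -0.23 among the regulators, against 0.03 over all genes.

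Dhcr7, the reductase that makes cholesterol from 7-dehydrocholesterol, had log2 intensities of 10.48, 10.40, 10.33, 9.89 and 9.38 at 2, 6, 24, 48 and 72 h of ATRA. It had 10.52, 10.39, 10.48, 10.44 and 10.40 at the same times of BMS753, against 10.51, 10.45, 10.47 and 10.46 in EtOH. All 3 late ATRA arrays lay below every EtOH and every BMS753 array. The late change with ATRA was -0.61 ± 0.11 (log2 ± SE, limma adjusted p = 7.18e-04), a fold of 0.655, and without the 72 h arrays it was -0.37, still called.

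Lss, the cyclase that turns squalene epoxide into lanosterol, had 11.48, 11.35, 11.58, 11.11 and 10.45 with ATRA at 2, 6, 24, 48 and 72 h. With BMS753 it had 11.60, 11.48, 11.71, 11.71 and 11.57, against 11.62, 11.62, 11.50 and 11.53 in EtOH. The 24 h ATRA array lay inside the EtOH range and the 2, 6, 48 and 72 h arrays below it. Late, Lss fell by 0.52 ± 0.14 with ATRA (limma adjusted p = 0.00839), and without the 72 h arrays the change was -0.23 and no longer called (adjusted p = 0.0591).

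Pmvk, the phosphomevalonate kinase, had 9.05, 8.96, 9.04, 8.77 and 8.02 with ATRA at 2, 6, 24, 48 and 72 h. With BMS753 it had 9.14, 8.94, 9.23, 9.24 and 9.13, against 9.13, 9.13, 9.19 and 9.16 in EtOH. Every ATRA array was below every EtOH array, and with BMS753 the 6 h array alone was lower by more than the EtOH spread. Pmvk fell by 0.54 ± 0.13 late with ATRA (limma adjusted p = 0.00495), and without the 72 h arrays the change was -0.25, still called.

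Mvd, the decarboxylase that ends the mevalonate steps, had 9.93, 9.87, 9.95, 9.75 and 8.81 with ATRA at 2, 6, 24, 48 and 72 h. With BMS753 it had 10.05, 9.95, 9.96, 10.18 and 10.22, against 9.96, 10.08, 9.90 and 9.96 in EtOH. The 72 h ATRA array lay far below all others, and the 2 and 24 h arrays were inside the EtOH range. Mvd fell by 0.48 ± 0.16 late with ATRA (limma adjusted p = 0.0271), and without the 72 h arrays the change was -0.13 and not called (adjusted p = 0.219).

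The other sterol genes that fell late with ATRA were Fdps, farnesyl diphosphate synthase, by 0.33 ± 0.10 (adjusted p = 0.0178), and Sqle, squalene epoxidase, by 0.23 ± 0.07 (adjusted p = 0.0172). Neither was called without the 72 h arrays, where the changes were -0.10 and -0.09. Idi1, the isopentenyl diphosphate isomerase, changed by -0.37 ± 0.15 and was not called (limma adjusted p = 0.061), and its second probe set gave the same -0.37. Fdft1, squalene synthase, stood at -0.20, Cyp51, the lanosterol demethylase, at -0.27 and Msmo1, the C4-methyl oxidase, at -0.19, and none of these was called. Idi1 (-0.46) and Cyp51 (-0.44) were called lower without the 24 h arrays, and Idi1 (-0.56), Fdft1 (-0.31) and Msmo1 (-0.32) without the 48 h arrays. In these settings 44.9% and 29.7% of all genes were called in either direction, against 36.9% with all arrays. Hmgcs1, the synthase that opens the mevalonate steps, stood at -0.02, Mvk, mevalonate kinase, at -0.08, Nsdhl, a C4 decarboxylating dehydrogenase, at -0.03 and Tm7sf2, a sterol C14 reductase, at 0.01. Idi1 and Fdft1 may share probes with near-identical copies, so their values are uncertain in that respect.

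The sterol genes that rose late were the same under both 1 µM agents. Hsd17b7, a 3-ketosteroid reductase of the later steps, had 9.86, 9.73, 9.82, 10.30 and 10.25 with ATRA at 2, 6, 24, 48 and 72 h, and with BMS753 it had 9.94, 9.84, 9.93, 10.12 and 10.43. EtOH had 9.83, 9.85, 9.78 and 9.77, so the 48 and 72 h arrays of both agents were above every EtOH array. It rose by 0.31 ± 0.08 with ATRA (limma adjusted p = 0.00765) and by 0.35 ± 0.08 with BMS753 (adjusted p = 0.0108). Sc5d, the desaturase that makes 7-dehydrocholesterol, rose by 0.30 ± 0.07 with ATRA (adjusted p = 0.00512) and by 0.32 ± 0.07 with BMS753 (adjusted p = 0.00963). With ATRA both calls were lost without the 48 h arrays, where the changes were 0.23 and 0.24, and with BMS753 Hsd17b7 was not called without the 72 h arrays (0.22) and Sc5d not without the 48 h arrays (0.33).

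Ebp, the sterol isomerase that precedes Sc5d, was above EtOH from 2 h under both 1 µM agents, as was Scap, described further on. Ebp had 8.69, 9.0, 8.86, 8.82 and 7.91 with ATRA at 2, 6, 24, 48 and 72 h, and 8.67, 8.77, 8.73, 8.74 and 8.74 with BMS753, against 8.35, 8.25, 8.43 and 8.41 in EtOH. Every array of both agents lay above every EtOH array, apart from the 72 h ATRA array, which lay below. Early (2 and 6 h) the change was 0.48 with ATRA (limma adjusted p = 0.287) and 0.36 with BMS753 (adjusted p = 0.443), late it was 0.17 ± 0.14 with ATRA (adjusted p = 0.366) and 0.38 ± 0.14 with BMS753 (adjusted p = 0.0906), so Ebp passed the test in none of these. Without the 72 h arrays Ebp was called higher in 3 of them, at 0.48 early with ATRA (adjusted p = 0.0044), at 0.48 late with ATRA (adjusted p = 4.75e-04) and at 0.37 late with BMS753 (adjusted p = 0.00983). With BMS641 and BMS961 together Ebp ranged from 0.01 to 0.23 above the EtOH mean over 10 arrays.

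In the fatty acid arm, 3 of 4 desaturase genes rose late under both 1 µM agents. Fads1, the delta-5 desaturase, rose by 0.23 ± 0.04 with ATRA (limma adjusted p = 3.99e-04) and by 0.26 ± 0.04 with BMS753 (adjusted p = 7.25e-04). Fads2, the delta-6 desaturase, rose by 0.18 ± 0.06 with ATRA (adjusted p = 0.0205) and by 0.29 ± 0.06 with BMS753 (adjusted p = 0.00407). Scd2, a stearoyl-CoA desaturase, rose by 0.20 ± 0.05 with ATRA (adjusted p = 0.00657) and by 0.24 ± 0.05 with BMS753 (adjusted p = 0.00773). The calls of Fads2 under both agents, and of Scd2 with BMS753, were lost without the 48 h arrays, where the changes were 0.16, 0.25 and 0.19, and that of Scd2 with BMS753 also without the 72 h arrays (0.19).

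Scd1, the other stearoyl-CoA desaturase, followed a different course from Scd2. Scd1 stood at 0.01, -0.13, 0.34, -0.06 and -0.94 with ATRA at 2, 6, 24, 48 and 72 h, as log2 minus the EtOH mean. Scd2 stood at 0.02, -0.08, 0.22, 0.22 and 0.17 in the same arrays. With BMS753 both were above EtOH at 48 and 72 h, Scd1 at 0.42 and 0.27 and Scd2 at 0.33 and 0.34, so the 72 h ATRA array was the one in which the 2 genes stood far apart. Scd1 was called in no comparison, with late changes of -0.22 ± 0.18 with ATRA and 0.27 ± 0.18 with BMS753. Without the 24 h arrays it was called lower with ATRA, at -0.50 against EtOH and at -0.84 against BMS753, where 44.9% and 23.7% of all genes were called.

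Fasn, fatty acid synthase, had 11.69, 11.57, 12.0, 12.04 and 11.60 with ATRA at 2, 6, 24, 48 and 72 h. With BMS753 it had 11.78, 11.75, 11.93, 12.31 and 12.25, against 11.81, 11.91, 11.74 and 11.76 in EtOH. With BMS753 the 3 late arrays were above every EtOH array, and with ATRA the 24 and 48 h arrays were above and the 2, 6 and 72 h arrays below. Fasn rose by 0.36 ± 0.09 late with BMS753 (limma adjusted p = 0.0167) and changed by 0.08 ± 0.09 with ATRA, which was not called, and without the 48 h arrays the BMS753 change was 0.28 and not called (adjusted p = 0.144). Acaca, the acetyl-CoA carboxylase that makes malonyl-CoA, rose by 0.33 ± 0.10 with BMS753 (adjusted p = 0.0429), a call lost when any single EtOH array was left out (adjusted p between 0.0683 and 0.0994), and stood at 0.09 with ATRA. Without the 72 h arrays both genes were called higher late with ATRA, Fasn at 0.22 (adjusted p = 0.032) and Acaca at 0.27 (adjusted p = 0.00579). Acly, ATP citrate lyase, stood at -0.06 with ATRA and 0.16 with BMS753, not called in either.

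Elovl6, the elongase that extends palmitate, was the fatty acid gene that stood below every EtOH array at 48 and 72 h of both agents. It stood at -0.06, -0.13, -0.08, -0.50 and -0.70 with ATRA at 2, 6, 24, 48 and 72 h, and at -0.05, -0.07, 0.05, -0.39 and -0.55 with BMS753. It fell by 0.42 ± 0.10 late with ATRA (limma adjusted p = 0.00306), while with BMS753 the change of -0.30 ± 0.10 did not pass (adjusted p = 0.0546), although without the 24 h arrays it was -0.47 and called. The difference between the agents, ATRA minus BMS753, was -0.13 with a 95% interval of -0.35 to 0.09.

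Late BMS753 against EtOH gave 7 genes that rose and 0 that fell of 31, where over all genes 6.52% rose and 6.94% fell. Of the 7, 5 were in the fatty acid arm (Acaca, Fasn, Scd2, Fads1, Fads2), 2 in the sterol arm (Hsd17b7, Sc5d) and 0 among the regulators. The median change was 0.10 in the sterol arm, 0.26 in the fatty acid arm and 0.05 among the regulators, against -0.01 over all genes. At an unadjusted p under 0.05, limma gave 11 genes higher and 2 lower. Without the 48 h arrays 2 of 31 genes were called, both higher (5.27% of all genes in either direction), and without the 24 h arrays 11 were called higher and 2 lower (26.9% of all genes), against 13.5% of all genes with all arrays. The calls gained without the 24 h arrays were those of Hmgcs1 at 0.37, Nsdhl at 0.27, Acly at 0.24 and Scap at 0.24 as higher, and of Elovl6 at -0.47 and Insig2 at -0.42 as lower.

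**Figure D3:**
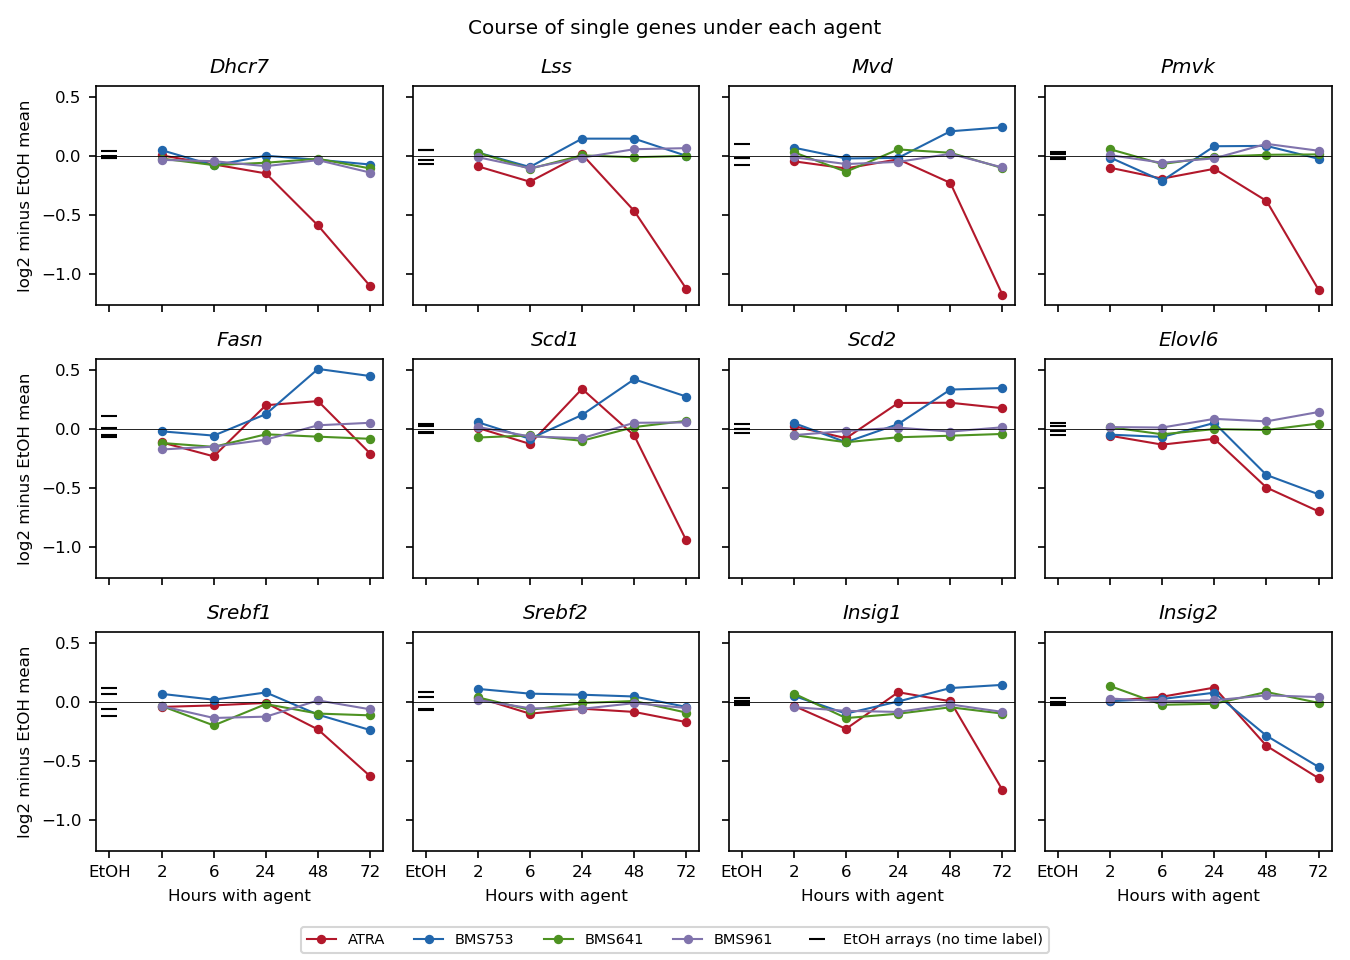
Log2 intensity minus the EtOH mean (y axis) against hours (x axis, not to scale) for 12 of the genes, 1 array per point, with the 4 EtOH arrays as ticks at the left. Dhcr7, Lss, Mvd and Pmvk end below -1.0 with ATRA alone. Elovl6 and Insig2 lie below EtOH at 48 and 72 h of ATRA and BMS753. Scd1 parts from Scd2 at 72 h of ATRA, and Insig1 lies far below EtOH at 72 h of ATRA but not of BMS753.

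Among the regulators, Srebf1 encodes the SREBP that mainly drives fatty acid genes. It had 9.22, 9.23, 9.25, 9.03 and 8.63 with ATRA at 2, 6, 24, 48 and 72 h, and 9.33, 9.28, 9.34, 9.15 and 9.02 with BMS753, against 9.33, 9.37, 9.20 and 9.14 in EtOH. The 48 and 72 h ATRA arrays and the 72 h BMS753 array were below every EtOH array. Srebf1 fell by 0.29 ± 0.09 late with ATRA (limma adjusted p = 0.0215) and changed by -0.09 with BMS753, not called, and without the 72 h arrays the ATRA change was -0.12 (adjusted p = 0.303).

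Srebf2 encodes the SREBP that mainly drives sterol genes. It had 11.05, 10.91, 10.96, 10.93 and 10.84 with ATRA at 2, 6, 24, 48 and 72 h, and 11.12, 11.08, 11.07, 11.06 and 10.97 with BMS753, against 11.06, 11.10, 10.95 and 10.95 in EtOH. The lowest array was again ATRA at 72 h, yet its distance from the EtOH mean was only -0.17. The late change was -0.10 ± 0.04 with ATRA (limma adjusted p = 0.0624) and 0.02 with BMS753, neither called.

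Scap, the SREBP escort, had 9.37, 9.42, 9.45, 9.70 and 9.59 with ATRA at 2, 6, 24, 48 and 72 h, and 9.41, 9.48, 9.37, 9.59 and 9.55 with BMS753, against 9.34, 9.36, 9.34 and 9.24 in EtOH. Every array of both agents was above every EtOH array. Scap rose by 0.26 ± 0.06 late with ATRA (limma adjusted p = 0.00256), and the change of 0.18 ± 0.06 with BMS753 did not pass (adjusted p = 0.051).

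The Insig genes, which hold Scap and SREBP back, took different courses. Insig1 had 11.68, 11.49, 11.80, 11.72 and 10.97 with ATRA at 2, 6, 24, 48 and 72 h, and 11.76, 11.62, 11.72, 11.83 and 11.86 with BMS753, against 11.68, 11.70, 11.75 and 11.72 in EtOH. Insig2 had 9.98, 10.02, 10.09, 9.60 and 9.33 with ATRA and 9.98, 10.00, 10.05, 9.69 and 9.42 with BMS753, against 9.95, 9.98, 10.01 and 9.97 in EtOH. Insig1 was thus far below EtOH at 72 h of ATRA alone, while Insig2 was below every EtOH array at 48 and 72 h of both agents. Insig2 fell by 0.30 ± 0.11 late with ATRA (limma adjusted p = 0.0452), a call that any single EtOH array left out removed (adjusted p between 0.0711 and 0.0887). Insig1 changed by -0.22 ± 0.12 with ATRA (adjusted p = 0.164), and Stard4, a cytosolic sterol carrier, by -0.25 ± 0.11 (adjusted p = 0.0978), neither called, while without the 24 h arrays both were called lower, at -0.37 and -0.36. In that setting 44.9% of all genes were called, against 36.9% with all arrays. Stard4 was at -0.24, -0.29, -0.01, -0.01 and -0.72 at 2, 6, 24, 48 and 72 h of ATRA.

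The comparison free of the missing time label on EtOH is ATRA against BMS753, matched in dose and time. Over the late arrays, 6 of 31 genes were lower with ATRA and 0 higher (limma adjusted p under 0.05), where over all genes 5.93% were lower and 4.44% higher. All 6 were in the sterol arm. ATRA minus BMS753 was -0.62 ± 0.15 for Lss (adjusted p = 0.0198), -0.62 ± 0.17 for Mvd (adjusted p = 0.0317), -0.59 ± 0.14 for Pmvk (adjusted p = 0.0198) and -0.58 ± 0.12 for Dhcr7 (adjusted p = 0.011). Cyp51 differed by -0.47 ± 0.13 (adjusted p = 0.0339) and Sqle by -0.29 ± 0.07 (adjusted p = 0.0236). The difference was negative in 30 of 31 genes, Scap being the exception at 0.08, and in 43.7% of all genes, with a median of -0.26 in the sterol arm, -0.17 in the fatty acid arm and -0.16 among the regulators against 0.02 over all genes.

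**Figure D4:**
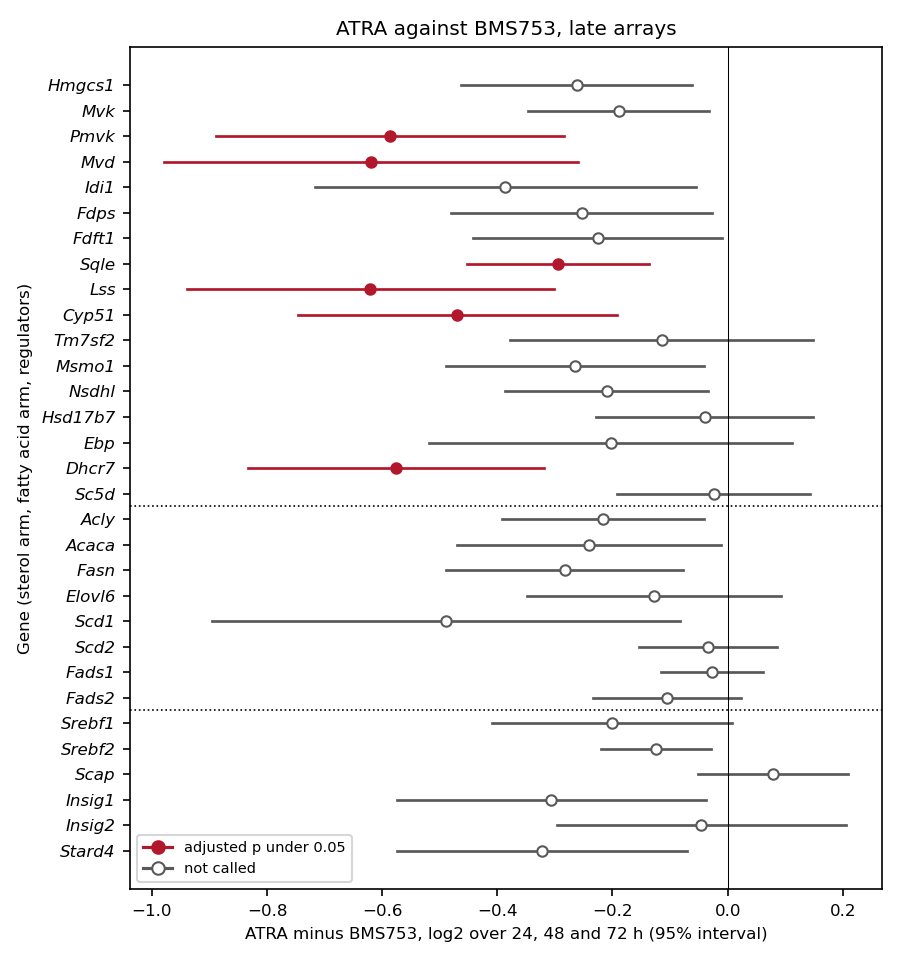
ATRA minus BMS753 in log2 units over the 24, 48 and 72 h arrays (x axis) for each gene (y axis), with the 95% interval of the limma fit; filled points have an adjusted p under 0.05. The 6 filled points (Pmvk, Mvd, Sqle, Lss, Cyp51, Dhcr7) lie between -0.62 and -0.29, all in the sterol arm.

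Most of the difference between the agents lay at 72 h. ATRA minus BMS753 had a median over the 31 genes of -0.05 at 2 h, -0.06 at 6 h, 0.01 at 24 h, -0.13 at 48 h and -0.64 at 72 h. It was negative in 25, 20, 15, 25 and 30 of the 31 genes at these times, against 68.1%, 64%, 46.4%, 50.9% and 43.5% of all genes. At 72 h all 17 sterol genes were lower with ATRA, between -1.41 for Mvd and -0.18 for Hsd17b7, with a median of -0.69. In the fatty acid arm Scd1 had the widest gap at 72 h, -1.21, and Fads1 the narrowest, -0.07.

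At 72 h, 17 of the 31 genes were at least 1.5-fold lower with ATRA than with BMS753 and 0 at least 1.5-fold higher, against 5.63% and 6.36% of all genes. Of the 17 genes, 12 were in the sterol arm, 3 in the fatty acid arm and 2 among the regulators. Against the EtOH mean, 13 of 31 were at least 1.5-fold lower at 72 h of ATRA (10.4% of all genes) and 0 higher (10.4%). At 72 h of BMS753, 0 were at least 1.5-fold lower (6.26%) and 1, Hsd17b7, at least 1.5-fold higher (6.07%). Each of these values rests on 1 array per agent, and the 1.5-fold counts were added after the data were seen.

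**Figure D5:**
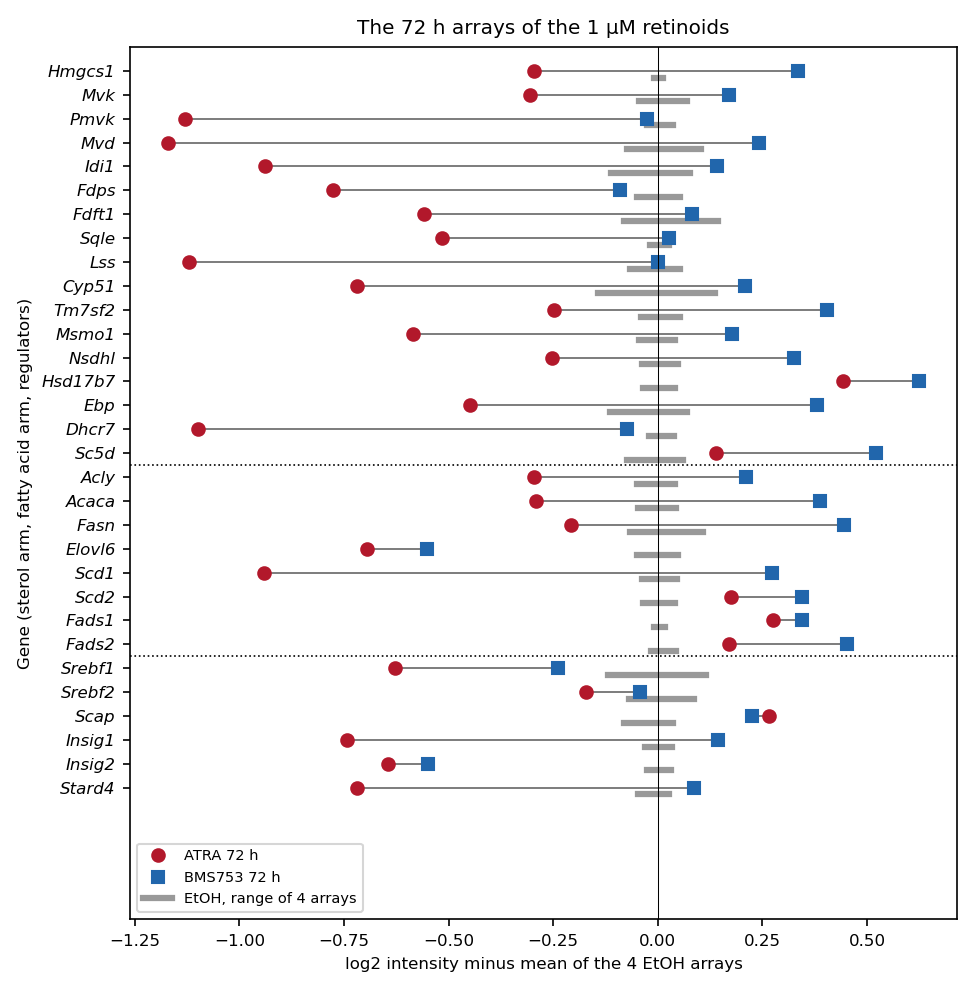
Log2 intensity minus the EtOH mean (x axis) for each gene (y axis) in the 72 h ATRA array (circles) and the 72 h BMS753 array (squares), with the range of the 4 EtOH arrays as grey bars. The ATRA circle is left of the BMS753 square in 30 of 31 genes, at most for Mvd, where the ATRA minus BMS753 difference is -1.41, and Scap is the exception.

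Within the late phase, 12 of 31 genes were lower with ATRA than with BMS753 at 24, 48 and 72 h alike, against 18.1% of all genes. For 7 genes (Pmvk, Mvd, Sqle, Cyp51, Dhcr7, Srebf2 and Stard4) the 3 late ATRA arrays did not overlap the 3 late BMS753 arrays, where 6.69% of all genes had ATRA arrays wholly below. The calls of this comparison depended on single times. Without the 72 h arrays 4 of 31 were called (Pmvk at -0.33, Sqle at -0.17, Lss at -0.37 and Dhcr7 at -0.35), without the 48 h arrays 0, and without the 24 h arrays 19. Over all genes 5.13%, 1.59% and 23.7% were called in the same settings, in either direction, against 10.4% with all arrays. Without the 2 h or without the 6 h arrays, which leave the late differences as they are, 1 of 31 genes, Dhcr7, was called (3.89% and 3.88% of all genes), and the other 5 had adjusted p between 0.0615 and 0.0829. In the early phase limma called 0 of 31 genes (0% of all genes), with 1 at an unadjusted p under 0.05, and the largest difference was -0.19 for Stard4. A contrast of the late with the early difference, added after the data were seen, called 0 of 31 genes (0.226% of all genes), with 3 at an unadjusted p under 0.05, and the smallest adjusted p was 0.115, for Dhcr7 at -0.56.

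Markers of other cell states differed between the 72 h arrays of ATRA and BMS753 as well. Of 6 neuron markers, 6 were above every EtOH array with ATRA, while with BMS753 3 were above and 3 below. Their summed intensity was 6868 with ATRA and 3602 with BMS753, against 3187 to 3299 in EtOH. Of 6 mesenchyme and smooth muscle markers, 5 were above and 1 below with ATRA, and 4 were above and 1 below with BMS753. Their summed intensity was 7484 with ATRA and 2653 with BMS753, against 1065 to 1112 in EtOH. At 72 h of ATRA 42.7% of all genes were above every EtOH array and 33.8% below, and at 72 h of BMS753 33.2% were above and 34.4% below. The 8 embryonal carcinoma markers summed to 2123 with ATRA and 6932 with BMS753, against 22638 to 24140 in EtOH. These sums follow the brightest genes of a list. Endoderm markers summed to 3270 with ATRA and 1323 with BMS753, against 496 to 517 in EtOH, glia markers to 2172 with ATRA and 795 with BMS753, against 1646 to 1732 in EtOH, and cell cycle genes to 20441 with ATRA and 21903 with BMS753, against 21586 to 21704 in EtOH. The median of the 6 endoderm markers, as log2 minus the EtOH mean, was 0.32 with ATRA (4 above and 1 below every EtOH array) and 0.35 with BMS753 (3 above and 0 below). For the 5 measured glia markers it was 0.18 with ATRA and -0.06 with BMS753, and for the 7 measured cell cycle genes -0.18 with ATRA and 0.03 with BMS753. The part of these lists in the values of the sterol arm was not tested. In such bulk samples fewer cells of a type and less RNA per cell cannot be told apart.

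BMS641 and BMS961, at 0.1 µM, left the set close to EtOH. Late, limma called 0 of 31 genes with BMS641 (0% of all genes) and 0 with BMS961 (0.00502%), with 0 genes at an unadjusted p under 0.05 in either. The late changes lay between -0.08 and 0.12 with BMS641 and between -0.13 and 0.10 with BMS961, and the 95% intervals reached at most 0.42 (Ebp) and 0.39 (Scd1) from 0. Dhcr7 stayed between 10.33 and 10.45 and Lss between 11.46 and 11.63 over the 10 arrays of both agents, Fasn between 11.63 and 11.86 and Insig1 between 11.58 and 11.78. BMS961 against BMS641 gave 0 called genes late and early (0% of all genes), with 0 at an unadjusted p under 0.05. Late differences lay between -0.07 and 0.09, with intervals that reached at most 0.42 from 0 (Scd1), and early differences between -0.15 and 0.05. The doses differ from those of ATRA and BMS753, so no comparison was made across doses.

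Early, no gene of the set was called against EtOH in limma. ATRA gave 0 of 31 (0.858% of all genes) with 1 at an unadjusted p under 0.05, and BMS753 gave 0 (0.306%) with 2. BMS641 and BMS961 gave 0 (0% of all genes) with 0 at an unadjusted p under 0.05. At single times, however, a low stand at 6 h recurred. Besides ATRA and BMS753, for which these counts are given above, 21 of 31 genes were below every EtOH array at 6 h with BMS641 and 16 with BMS961, against 22.2% and 22.5% of all genes. At 2 h the counts were 6 and 9, against 15.3% and 16.3%. The same 10 genes were below at 6 h in all 4 agents (3.79% of all genes), and 0 at 2 h, where 255 of all 19938 genes were. The shift from 2 h to 6 h was small, with a median of -0.08 over the 31 genes against -0.01 over all genes. In all 4 agents 16 of 31 genes were lower at 6 h than at 2 h (13.6% of all genes), 11 of them in the sterol arm. A limma contrast of 6 h with 2 h, added after the data were seen, called 0 of 31 genes (0% of all genes), with 4 at an unadjusted p under 0.05, all lower.

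Late against early within an agent, limma called 5 genes higher and 2 lower of 31 with ATRA, where 14.9% of all genes were higher and 16.7% lower. With BMS753 it called 4 higher (3.26% of all genes) and 0 lower (7.57%). Fads1, Fads2 and Scd2 rose late under both agents, by 0.22, 0.22 and 0.23 with ATRA and by 0.16, 0.26 and 0.27 with BMS753. Fasn rose by 0.40 with BMS753, and with ATRA Dhcr7 fell by 0.58, Elovl6 fell by 0.33, Hsd17b7 rose by 0.33 and Sc5d rose by 0.26. These calls depended on single times: without the 2 h arrays 0 of 31 genes were called with ATRA (9.45% of all genes) and 0 with BMS753 (0.968%), and without the 24 h arrays 17 with ATRA (42.5%) and 12 with BMS753 (25.2%).

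Genes around the pathway came from 6 further lists, whose late counts stand against 17.9% of all genes that rose and 19% that fell with ATRA, and 6.52% that rose and 6.94% that fell with BMS753. Of 10 genes of acetyl-CoA supply and other SREBP-linked functions, 5 fell and 0 rose late with ATRA, and 2 fell and 0 rose with BMS753. Mid1ip1, which activates acetyl-CoA carboxylase, fell by 1.25 with ATRA (limma adjusted p = 9.09e-07) and by 0.70 with BMS753 (adjusted p = 3.8e-04), and Acacb, the mitochondrial acetyl-CoA carboxylase, fell by 0.52 with ATRA and by 0.42 with BMS753. Rdh11, a retinal reductase, fell by 0.73 with ATRA, and Slc25a1, the mitochondrial citrate carrier, and Aacs, acetoacetyl-CoA synthetase, fell by 0.36 and by 0.32. Between the agents, Mid1ip1, Aacs and Slc25a1 were lower with ATRA than with BMS753, with differences of -0.55, -0.53 and -0.52 (limma adjusted p = 0.00772, 0.00883 and 0.0207), where 5.93% of all genes were lower.

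Of 8 genes of elongation and desaturation beyond the set, 2 fell with ATRA, Elovl7 by 0.81 and Hsd17b12, the ketoacyl-CoA reductase of elongation, by 0.73, and 1 rose with BMS753, Elovl1 by 0.32. Of 4 genes of SREBP processing, 2 rose with ATRA, Erlin1 by 0.35 and Erlin2 by 0.26, and Erlin1 rose with BMS753, by 0.33. Of 6 genes of LXR and sterol handling, Mylip, a ubiquitin ligase, rose by 0.92 with ATRA, Stard3 rose by 0.23 with ATRA and 0.21 with BMS753, and Abcg1, a sterol exporter, fell by 0.67 with ATRA and by 0.65 with BMS753. Of 5 genes of isoprenoid branches, Dhdds rose by 0.18 and Pdss2 fell by 0.23 with ATRA, and 0 were called with BMS753. Over all genes 36.9% were called with ATRA and 13.5% with BMS753 in either direction.

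Fatty acid oxidation, the opposite pathway, had 2 genes that rose and 3 that fell of 9 with ATRA, and 1 that rose and 2 that fell with BMS753, against 36.9% and 13.5% of all genes called in either direction. Acadl and Acadm, acyl-CoA dehydrogenases, fell by 1.08 and by 0.57 with ATRA and by 1.06 and by 0.39 with BMS753. Cpt2, an inner-membrane carnitine palmitoyltransferase, fell by 0.45 with ATRA. Slc25a20, the carnitine carrier, rose by 0.59 with ATRA and was higher with ATRA than with BMS753 by 0.48 (limma adjusted p = 0.0119). Ppara, a dim gene with a mean log2 intensity of 5.86 in EtOH, rose by 0.27 with ATRA and by 0.21 with BMS753.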

How the data were processed

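The files gave 1 log2 intensity for every probe set and array, which the authors had produced in Affymetrix Expression Console 1.1, per the submitters' processing notes. For background, summarization and normalization, the method is not given in the sources used, and the log2 scale was inferred from the lowest and highest value, 2.859 and 14.3. There were 35556 probe sets: 21789 carried a single symbol, 1621 more than one, and 12146 none here. A gene with more than 1 such probe set (999 genes) was represented by that of highest mean. This left 19938 genes, all of them tested.

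All 24 arrays entered 1 fit in limma 3.58.1 (R 4.3.3, lmFit and eBayes with trend), with means for EtOH and for each agent early (2 and 6 h, n = 2) and late (24, 48 and 72 h, n = 3), and time terms within a phase common to the 4 agents. With 12 residual and 3.10 prior degrees of freedom, the residual contained differences in time course between agents as well as the scatter of the EtOH arrays. There were 14 comparisons, two-sided, with Benjamini-Hochberg adjustment over all genes and calls at an adjusted p under 0.05. SE is the standard error of the fit. The code was tested on simulated data. The number of arrays limits the precision.

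The genes, lists and tests were chosen with earlier results of these data known. Values in every array are given for the 3 genes of largest change in each of the comparisons of late ATRA with EtOH, late BMS753 with EtOH and late ATRA with BMS753, and for 5 regulators. Promoters came from RefSeq (GRCm38.p6). As alternatives, the dimmest 33.3% of genes were dropped (13292 remained), arrays were quantile normalized again, probe sets of a gene were averaged, variances were moderated robustly, the time terms were dropped, the error was taken from EtOH arrays only, ATRA and BMS753 were fitted on their 6 late arrays, and each EtOH array or each time was left out in turn.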

Additional observations from a re-analysis of the deposited data

Results flagged for a closer look

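In the 4 EtOH arrays, Fads2 in replicate 1 lay apart from the other arrays at a log2 intensity of 11.87, and Scap in replicate 4 lay apart at 9.24, by Dixon's test. Chance alone marks about 1 in 20 groups of this size, and 31 genes were examined.

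The late phase differed from the early phase of the same agent in 11 tests. Over all genes, 31.5% were called in either direction with ATRA and 10.8% with BMS753. These calls depended on single times, as described above. With ATRA late against ATRA early, limma gave Hsd17b7 at 0.33, Sc5d at 0.26, Scd2 at 0.23, Fads1 at 0.22 and Fads2 at 0.22 as higher, and Dhcr7 at -0.58 and Elovl6 at -0.33 as lower. With BMS753 late against BMS753 early it gave Fasn at 0.40, Scd2 at 0.27, Fads2 at 0.26 and Fads1 at 0.16 as higher.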

How the results depend on the processing

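Of 39 calls of single genes, 7 were kept under all alternatives run (Pmvk, Dhcr7, Elovl6, Scd2, Fads1 and Scap late with ATRA, and Fads1 late with BMS753), and 32 were lost under at least 1. The counts of called genes in late ATRA and late BMS753 against EtOH stayed within 1.5 times of 15 and 7 when low genes were left out, under quantile normalization, with the mean of probe sets, with robust moderation and without the time term. With low genes left out, the counts were 17 of 31 for late ATRA, 9 for late BMS753 and 6 for ATRA against BMS753 late. Of the 13292 remaining genes, 6840, 2863 and 2185 were called in the same order. These are larger shares than the 36.9%, 13.5% and 10.4% over all 19938 genes, so the set stood out less among brighter genes. When the error came from EtOH arrays only, the counts were 23 for ATRA late against EtOH, 17 for BMS753 late against EtOH, 6 for ATRA early, 1 for BMS753 early, 24 for ATRA against BMS753 late, and 22 for late against early with ATRA and 22 with BMS753, while 47.9%, 31.3%, 7.03%, 4.55%, 35.2%, 46.1% and 30.4% of all genes were called in the same order. With only the 6 late arrays, ATRA against BMS753 gave 0 of 31 and 0 of all 19938 genes, with the same changes as in the report's fit (Lss -0.62, Mvd -0.62, Pmvk -0.59 and Dhcr7 -0.58, adjusted p between 0.413 and 0.431). The fit of 6 arrays has fewer residual degrees of freedom. Its spread also comes from ATRA and BMS753 alone, without the BMS641, BMS961 and EtOH arrays. The difference between ATRA and BMS753 varied with time, from -0.012 at 24 h to -1.412 at 72 h for Mvd and from -0.148 to -1.025 for Dhcr7. Leaving out 1 EtOH array or 1 time at a time gave 12 to 21 called genes for ATRA late against EtOH, 2 to 13 for BMS753 late against EtOH, 0 to 19 for ATRA against BMS753 late, 0 to 17 and 0 to 12 for late against early with ATRA and with BMS753, and 0 to 2 for ATRA early. The share of all genes called moved in the same settings. It was 29% to 44.9% for ATRA late, 5.27% to 26.9% for BMS753 late, 1.59% to 23.7% for ATRA against BMS753 late and 0.0903% to 1.87% for ATRA early. Insig1, ATRA late against ATRA early, was -0.09 in the report's fit and ranged from -0.24 to 0.17 when 1 time was left out, turning to 0.17 (called) without the 72 h arrays, the lowest ones with ATRA. Of the arm medians, 20 of 420 values and of the counts beyond the EtOH range, 19 of 280, moved. No paired analysis was possible because, apart from EtOH, no labels carry replicate numbers. Arrays of the same hour were matched through the time terms of the fit and in the differences at each time.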
